A study of Rattus norvegicus with 12 samples.

Results

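Xanthine dehydrogenase and the genes around it on the path from AMP to urate were followed in rat heart, left ventricle, in 6 exercised and 6 sedentary samples. Exercised samples came from animals that had run on a treadmill for 7 weeks, and sedentary samples from animals labelled sedentary, with no other treatment named for either group. Total RNA of each sample went to 1 single-channel expression array, and the table gave a linear intensity for 8740 probe sets. The series title gives growth of the heart under exercise as the subject, and strain, sex, age, running schedule and the time between the last run and sampling stay unknown here. Nothing in the labels ties a sample number to an animal of its own, so the spread behind each p-value may be technical in part. Samples are called by group and label number (exercised 1, 4, 5, 7, 8 and 9, and sedentary 13, 16, 17, 21, 23 and 24).

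The members were 10 genes chosen by symbol: Xdh, Nt5e, Ada, Adk, Ampd1, Ampd2, Ampd3, Pnp, Hprt1 and Uox. Every probe set whose annotation gave 1 single symbol equal to a member was taken, which gave 10 probe sets of the 8740, for 6 of the 10 genes and of the 4736 genes named on the array. Xdh, Adk and Ampd3 had 1 probe set each, Ampd1 and Hprt1 had 2 each, and Uox had 3. Nt5e, Ada, Ampd2 and Pnp had no such probe set and were not analysed here. The choice of Xdh followed from its difference between these same groups, so its values are a description and no test is given for it.

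When ATP is spent faster than it is remade, AMP accumulates, and AMP deaminase turns it into IMP while 5'-nucleotidase turns it into adenosine. Adenosine deaminase makes inosine, purine nucleoside phosphorylase frees hypoxanthine, and xanthine dehydrogenase oxidises hypoxanthine to xanthine and xanthine to urate. Adenosine kinase and hypoxanthine phosphoribosyltransferase run the other way, returning adenosine and hypoxanthine to nucleotides before the purine ring is lost. Xanthine dehydrogenase passes its electrons to NAD+, and after oxidation or cleavage the enzyme works as xanthine oxidase, which makes superoxide and hydrogen peroxide. In the heart the enzyme is known mainly from the capillary endothelium.

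The promoter windows of 3 members are shown because they cover Xdh, whose signal differed most between the groups, a muscle isoform of the AMP branch (Ampd1) and a salvage enzyme used by nearly all cells (Hprt1). They are RefSeq windows on build GRCr8 of 250 bases before and 50 bases from the start that the table gives each gene. Capitals mark matches, on either strand, to any of 3 short motifs. The GC box was searched as GGGCGG. The CCAAT box was searched by the letters of its name. The TATA box was searched as TATAAA. No match overlapped that of another motif in these windows.
Xdh, chr6:27282069-27282368, + strand: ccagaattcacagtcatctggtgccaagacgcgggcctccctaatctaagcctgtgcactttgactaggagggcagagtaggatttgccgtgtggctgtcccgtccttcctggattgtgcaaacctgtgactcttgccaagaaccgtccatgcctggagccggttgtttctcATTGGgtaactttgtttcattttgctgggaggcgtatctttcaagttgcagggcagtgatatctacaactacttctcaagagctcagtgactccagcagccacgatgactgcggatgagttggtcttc
Ampd1, chr2:193287082-193287381, + strand: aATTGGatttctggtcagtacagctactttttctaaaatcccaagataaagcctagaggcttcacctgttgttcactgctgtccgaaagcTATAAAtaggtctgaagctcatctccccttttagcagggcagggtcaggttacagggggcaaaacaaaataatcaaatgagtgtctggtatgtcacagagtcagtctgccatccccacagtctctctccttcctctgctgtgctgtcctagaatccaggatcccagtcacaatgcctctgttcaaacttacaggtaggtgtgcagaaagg
Hprt1, chrX:137655494-137655793, + strand: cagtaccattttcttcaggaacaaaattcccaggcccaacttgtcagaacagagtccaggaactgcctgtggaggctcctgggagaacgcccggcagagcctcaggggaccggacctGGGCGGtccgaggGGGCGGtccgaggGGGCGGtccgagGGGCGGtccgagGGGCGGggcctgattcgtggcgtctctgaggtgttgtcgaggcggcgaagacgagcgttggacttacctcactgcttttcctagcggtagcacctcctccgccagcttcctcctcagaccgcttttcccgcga
The Xdh window held 1 CCAAT box, on the reverse strand with its first base 78 bases before the start, and no GC or TATA box. The Ampd1 window held 1 CCAAT box and 1 TATA box, and that of Hprt1 held 5 GC boxes, all on the forward strand. Of 33469 such windows, 33.1% held a GC box, 37.5% a CCAAT box and 14.2% a TATA box. CpG pairs numbered 9 in the Xdh window, 1 in that of Ampd1 and 24 in that of Hprt1, against a median of 7 over all windows. These are letter matches in the reference sequence and were not tied to the array values.

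Median intensity lay between 840 and 875 on the 12 arrays, so they were on a common scale, and the number of arrays limits the precision. Sedentary 17 stood apart. Its mean correlation with the other sedentary arrays was 0.9667, against 0.9848 to 0.9865 for the others of that group, over 6555 probe sets. Exercised 4 and 5 had low signal of the haemoglobin gene Hbb (15784 and 8786, against 28362 to 33321 on the other exercised and 31533 to 37794 on the sedentary arrays). Of 12 tested heart muscle markers none passed the test, and their summed intensity was 433253 to 465115 on exercised and 422287 to 471997 on sedentary arrays. A difference is the exercised mean minus the sedentary mean of log2(intensity + 363), so changes of dim probe sets come out too small. The test was limma over 6555 probe sets, two-sided, with Benjamini-Hochberg adjustment and a threshold of 0.05.

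Xdh, the enzyme that makes urate, had about 1.57 times the mean signal in exercised ventricles. Its single probe set, rc_AI172247_at, read 2323, 2852, 2482, 2549, 2373 and 2489 in exercised samples 1, 4, 5, 7, 8 and 9. It read 1969, 1619, 1488, 1590, 1445 and 1495 in sedentary samples 13, 16, 17, 21, 23 and 24. Every exercised value lay above every sedentary one, with sedentary 13 nearest to the exercised range and exercised 4 the highest. The means were 2511 ± 186 in exercised and 1601 ± 192 in sedentary samples (SD, n = 6 each), a log2 difference of 0.55 ± 0.065 (SE). It ranked 18 of the 6555 tested probe sets by size of increase. The share of all tested probe sets whose groups did not overlap was 2.07%, and 0.320% passed the test in either direction. Nothing is read from these shares for Xdh, which was chosen on this contrast.

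The Xdh difference did not hang on 1 array. Leaving out each array in turn gave 0.52, without exercised 4, to 0.60, without sedentary 13. It was 0.51 without exercised 4 and 5 and 0.54 without sedentary 16 and 17. The probe set comes from a single expressed sequence tag and no other probe set names Xdh, so no second probe set of the gene could be set beside it. RNA of whole ventricle was measured, so more Xdh transcript per cell and more cells that carry it cannot be told apart.

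**Figure D1:**
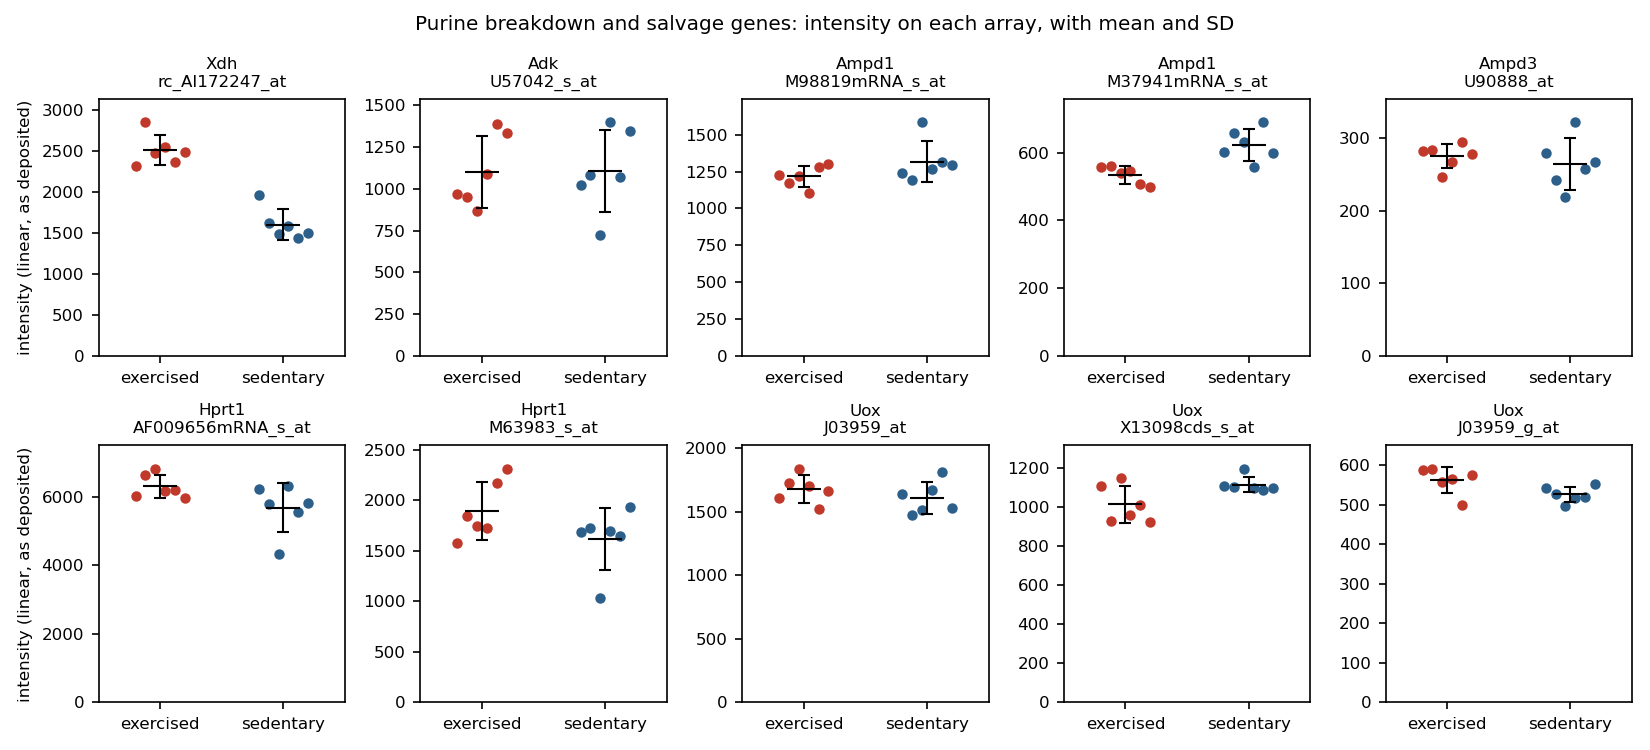
Linear intensity (vertical axis, from 0) of the 10 member probe sets, with exercised arrays in red at the left and sedentary arrays in blue at the right, and bars for the mean and SD (n = 6 each). Only in the Xdh panel do the 2 groups separate, with exercised values of 2323 to 2852 above sedentary values of 1445 to 1969.

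Endothelial markers, from the cell type in which cardiac Xdh is mostly described, were set beside this result. Of 13 endothelial genes on the array 11 were tested, none passed, and by sign 5 were higher and 6 lower. Their median difference was -0.01, against 0.0027 over all tested probe sets. Their summed intensity was 16016 to 17150 on exercised and 16100 to 16873 on sedentary arrays, so the ranges overlapped. The adhesion molecule Pecam1 gave 0.06 ± 0.082 (limma adjusted p = 0.736), the nitric oxide synthase Nos3 0.02 ± 0.064 (0.919) and von Willebrand factor Vwf -0.14 ± 0.077 (0.369). The largest difference of the list was that of the caveolar protein Cav1, which lay in the direction of Xdh (0.21 ± 0.11, limma adjusted p = 0.334), with all 6 exercised values above the sedentary mean. The smallest p was that of the adhesion receptor Selp (-0.14 ± 0.065, limma adjusted p = 0.306). Sedentary 17 was extreme for these genes, with a Vwf intensity of 1394, against 781 to 875 on exercised and 861 to 908 on the other sedentary arrays. Without it Cav1 gave 0.11, Selp -0.079 and Vwf -0.062, and the list median was -0.024.

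Markers of other cells of the ventricle also moved with the groups in part. Of 14 tested macrophage and leukocyte markers, 1 passed, against 0.320% of all tested probe sets. It was the myeloid lysozyme Lyz2, which was higher in exercised samples (0.997 ± 0.185, limma adjusted p = 0.0404). Lyz2 read 9078 on exercised 4, against 3274 to 5999 on the other exercised and 2000 to 2854 on the sedentary arrays. The other 13 did not pass, and 7 of the 14 were higher by sign, with a median of 0.0057. The complement gene C1qb gave 0.37 ± 0.093 (limma adjusted p = 0.0910) and the macrophage receptor Csf1r -0.17 ± 0.060 (0.177), so these markers differed in sign. The summed intensity of this list was 25212 to 31408 on exercised and 23657 to 25784 on sedentary arrays. Without Lyz2 it was 21684 to 23031 on exercised and 21397 to 23433 on sedentary arrays. Of 9 fibroblast markers none passed and 8 were higher by sign (median 0.21, summed 49940 to 76190 on exercised and 39773 to 53678 on sedentary arrays). Of 6 smooth muscle and pericyte markers none passed and 5 were higher by sign (median 0.14, summed 20443 to 25788 on exercised and 18731 to 21314 on sedentary arrays). The groups did not overlap for 1 of the 6, the smooth muscle actin Actg2, against 2.07% of all tested probe sets. Actg2 read 652 to 792 on exercised and 538 to 648 on sedentary arrays (0.17 ± 0.040, limma adjusted p = 0.0729). All 4 tested erythroid markers were lower by sign and none passed (median -0.43, summed 19899 to 65142 on exercised and 62294 to 71206 on sedentary arrays). Without exercised 4 and 5, the erythroid median was -0.12 and the fibroblast median 0.096. No tested marker of these lists was at 0 on any array, and the part of these cells in the Xdh difference was not tested.

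None of the other 8 tested probe sets passed the threshold, against 0.320% of all tested probe sets. Of the 8 probe sets, 4 were higher and 4 lower by sign. An unadjusted p under 0.05 was reached by 2 of the 8 in limma, against 16.2% of all tested probe sets. An exact rank-sum test also gave 2 of the 8, against 15.1% of all tested probe sets, but not the same 2. In limma they were M37941mRNA_s_at of Ampd1 and X13098cds_s_at of Uox, both lower. In the rank-sum test J03959_g_at of Uox, higher by sign, took the place of X13098cds_s_at (rank-sum adjusted p = 0.273 and 0.51). The rank-sum test called none of the 8 after adjustment, and none of the 6555. The half-widths of their 95% intervals ran from 0.0692 to 0.247 log2, and a p above the threshold does not show that a gene stayed the same.

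AMP deaminase, the step from AMP to IMP, was measured by Ampd1, the isoform of skeletal muscle, and Ampd3, first known from red blood cells. The dimmer Ampd1 probe set, M37941mRNA_s_at, read 556, 559, 540, 545, 507 and 498 in exercised samples, against 602, 658, 630, 556, 689 and 599 in sedentary samples. All 6 exercised values lay under the sedentary mean, and the groups overlapped only through sedentary 21, whose 556 was below the highest exercised value. The log2 difference was -0.13 ± 0.037, with a 95% interval of -0.21 to -0.055 (limma adjusted p = 0.103), the smallest adjusted p among the 8 probe sets.

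The brighter Ampd1 probe set, M98819mRNA_s_at, had the same sign. It read 1107 to 1303 with a median of 1223 in exercised samples, against 1191 to 1585 with a median of 1282 in sedentary samples, and its difference was -0.08 ± 0.053 (interval -0.20 to 0.03, limma adjusted p = 0.446). The highest value, 1585, was that of sedentary 17, and without it the difference was -0.041. Ampd3 was too dim for the filter and was not in the main test. Its intensity was 246 to 294 in exercised and 218 to 322 in sedentary samples, all below the pseudocount, and in a fit without the filter it gave 0.03 ± 0.036 (adjusted p = 0.720).

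**Figure D2:**
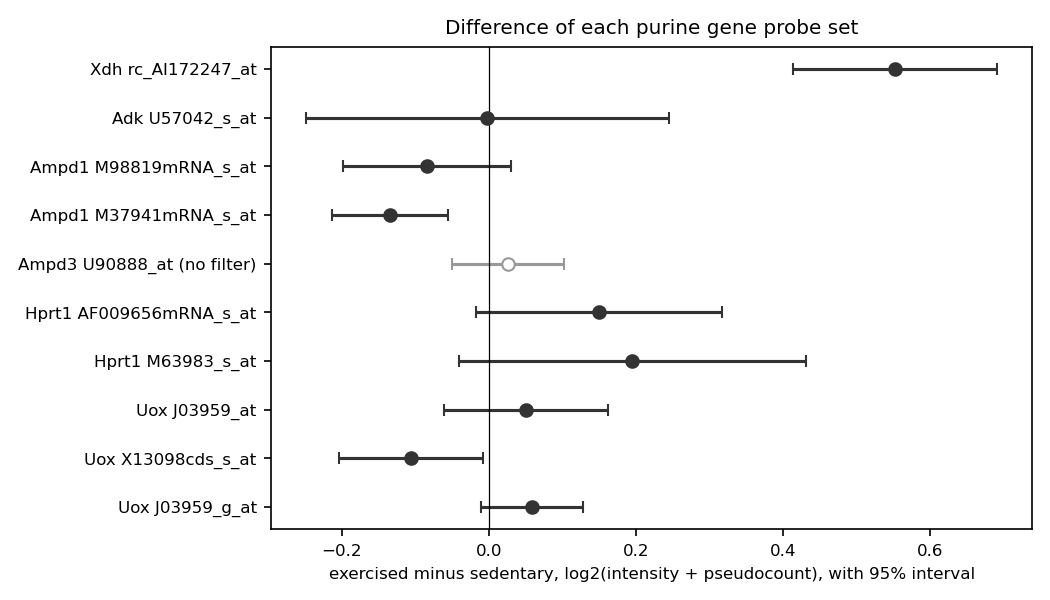
Difference of exercised from sedentary means of log2(intensity + 363) (horizontal axis) for each member probe set (vertical axis), with 95% intervals from the limma fit and, for Ampd3 as an open circle, from the fit without a filter. Xdh stands at 0.55, chosen for its difference, and the other differences lie between -0.13 and 0.20.

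Adenosine kinase, Adk, which returns adenosine to AMP, had a wide spread in both groups. Its probe set U57042_s_at read 967, 953, 864, 1090, 1390 and 1333 in exercised samples, against 1023, 1080, 723, 1398, 1072 and 1344 in sedentary samples. The groups overlapped almost wholly, with the lowest value in sedentary 17 and the highest in sedentary 21. The log2 difference was -0.002 ± 0.12, with an interval of -0.25 to 0.24 (limma adjusted p = 0.993). It was -0.086 without sedentary 17 and 0.093 without exercised 4 and 5.

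Hprt1, which returns hypoxanthine and guanine to nucleotides and so competes with Xdh for hypoxanthine, was higher by sign on both of its probe sets. AF009656mRNA_s_at read 6032, 6643, 6818, 6165, 6188 and 5978 in exercised samples, against 6225, 5798, 4334, 6323, 5567 and 5834 in sedentary samples. Sedentary 17 was far the lowest, and 4 of the 6 exercised values lay below the highest sedentary one. The difference was 0.15 ± 0.078 (limma adjusted p = 0.362), and 0.079 without sedentary 17.

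The dimmer Hprt1 probe set, M63983_s_at, read 1574, 1846, 1740, 1723, 2166 and 2310 in exercised samples, against 1683, 1722, 1030, 1699, 1644 and 1930 in sedentary samples. It gave 0.20 ± 0.11 (interval -0.04 to 0.43, limma adjusted p = 0.395), and 0.097 without sedentary 17, which was again the lowest. The difference of Xdh without this array was 0.54.

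Urate oxidase, Uox, breaks urate down further in the rat and is known as a liver enzyme of the peroxisome. Its 3 probe sets disagreed in sign. J03959_at read 1518 to 1837 in exercised and 1472 to 1813 in sedentary samples and gave 0.05 ± 0.052 (limma adjusted p = 0.638), with 0.013 without exercised 4 and 5 and 0.0087 without sedentary 16 and 17. J03959_g_at, designed on the same sequence entry, read 501 to 591 in exercised and 498 to 553 in sedentary samples and gave 0.06 ± 0.032 (0.387). X13098cds_s_at read 922 to 1150 in exercised and 1087 to 1196 in sedentary samples and gave -0.11 ± 0.046 (interval -0.20 to -0.0078, limma adjusted p = 0.265).

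The files hold no detection calls, so whether the Uox probe sets measured a transcript above background in the ventricle is not known. The liver marker albumin, Alb, read 656 to 769 on exercised and 673 to 788 on sedentary arrays. Of 10 liver markers on the array 6 were tested, and none passed (2 higher and 4 lower by sign, summed 5643 to 6126 on exercised and 5849 to 6347 on sedentary arrays). Mean intensity of the 6 ran from 520 for Apoa1 to 1568 for Cyp2e1 in exercised samples. In sedentary samples it ran from 558 to 1541 for the same genes.

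Other genes of purine and pyrimidine handling were taken from 7 lists with 40 tested genes, each represented by its brightest probe set. No gene of the 40 passed the threshold in limma or in the rank-sum test, and 8 had an unadjusted p under 0.05 in limma (5 higher and 3 lower), against 16.2% of all tested probe sets. By sign 22 were higher and 18 lower, and the median difference was 0.0051, against 0.0027 over all tested probe sets.

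The largest difference among the 40 was that of guanine deaminase, Gda, which makes xanthine from guanine and so feeds Xdh by a route that does not pass through hypoxanthine. Its brightest probe set, rc_AA859837_g_at, read 4499, 6075, 5782, 4308, 3925 and 2560 in exercised samples, against 3628, 3347, 3417, 2830, 1902 and 1880 in sedentary samples. In 5 of 6 exercised samples it lay above every sedentary value, and exercised 9 lay inside the sedentary range. The spread was wide, at 4525 ± 1284 in exercised and 2834 ± 776 in sedentary samples (SD, n = 6 each), and the difference of 0.61 ± 0.19 had an interval of 0.19 to 1.02 and did not pass (limma adjusted p = 0.151).

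The 3 Gda probe sets did not give the same picture. rc_AA859837_at, from the same expressed sequence tag, gave 0.50 ± 0.16 (limma adjusted p = 0.151), with 1526 to 3632 in exercised and 1155 to 2039 in sedentary samples. U03629_at gave 0.01 ± 0.041 and did not pass, with 1312 to 1505 in exercised and 1359 to 1501 in sedentary samples. The highest Gda values were those of exercised 4 and 5, the arrays low in Hbb, and without them the difference of the brightest probe set was 0.40 (adjusted p = 0.429).

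**Figure D3:**
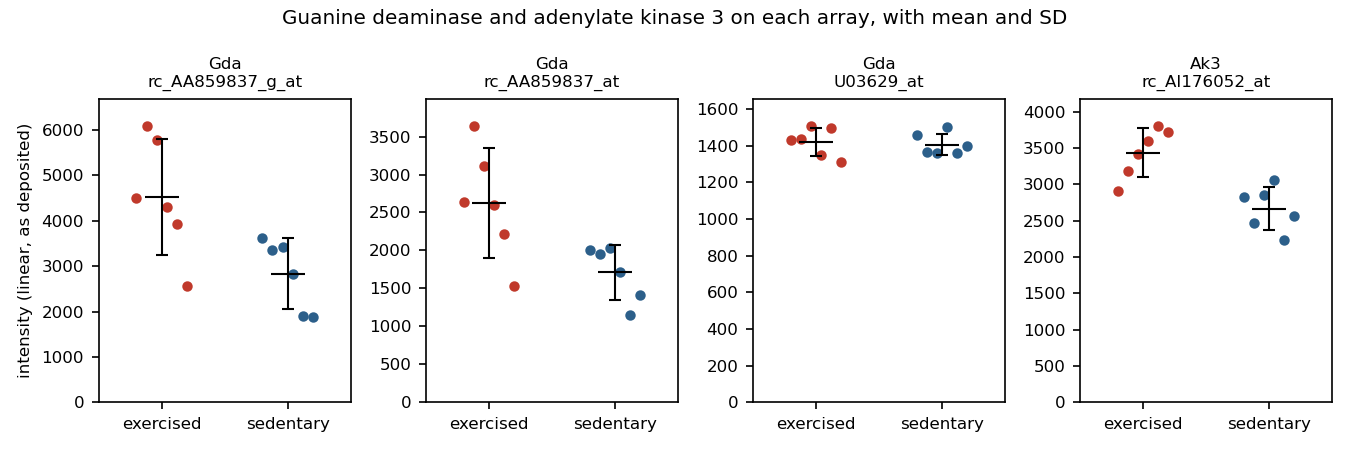
Linear intensity (vertical axis, from 0) of the 3 probe sets of guanine deaminase and the probe set of adenylate kinase 3, exercised arrays in red at the left and sedentary arrays in blue at the right, with mean and SD (n = 6 each). The first and second Gda panels are higher in most exercised samples, while the third, U03629_at, lies between 1312 and 1505 in both groups.

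Adenylate kinase 3, Ak3, of the mitochondrial matrix, which uses GTP to turn AMP into ADP, had the smallest p of the 40. It read 2903, 3186, 3414, 3592, 3794 and 3721 in exercised samples, against 2820, 2462, 2853, 3061, 2235 and 2560 in sedentary samples. Only exercised 1 was below the highest sedentary value, that of sedentary 21. The difference was 0.33 ± 0.077 (interval 0.16 to 0.49, limma adjusted p = 0.0746) and did not pass. Without exercised 1 it was 0.37 and passed (limma adjusted p = 0.0470). With any other single array left out it did not pass (limma adjusted p from 0.0617 to 0.163). It passed with array weights (limma adjusted p = 0.0400) but not in the rank-sum test (adjusted p = 0.127).

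The remaining salvage and interconversion genes gave smaller differences. Of the 10 tested in this list, Gda and Ak3 among them, none passed, and 6 were higher and 4 lower by sign (median 0.03). Nme1, a nucleoside diphosphate kinase, gave 0.11 ± 0.057 (limma adjusted p = 0.358), and Nudt1, which removes oxidised purine nucleotides, gave -0.14 ± 0.062 (0.285). Aprt, which salvages adenine, averaged 4336 in exercised and 4206 in sedentary samples, a difference of 0.04 (0.791).

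Genes that release and take up adenosine were tested in 2 lists. Of 7 genes of nucleotide release and nucleotidases none passed, and 5 were higher by sign (median 0.01). Entpd2, a surface enzyme that splits ATP, gave 0.12 ± 0.044 (limma adjusted p = 0.182) and 0.18 on its other probe set. Of 6 adenosine receptors and nucleoside transporters none passed, and 4 were lower by sign (median -0.03). The nucleoside transporter Slc29a2 gave -0.13 ± 0.054 (0.253) and the A1 receptor Adora1 -0.13 ± 0.059 (0.280), and for both all 6 exercised values lay under the sedentary mean. Sedentary 17 had an Adora1 intensity of 964, against 584 to 684 on exercised and 648 to 723 on the other sedentary arrays. Leaving that array out gave an Adora1 difference of -0.076.

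Purine synthesis, molybdenum cofactor and enzymes, urate transport and pyrimidines made up the other lists. Of 5 genes of de novo synthesis 3 were higher by sign and none passed (median 0.0093), with Prpsap2, a partner of the synthetase that makes phosphoribosyl pyrophosphate, at 0.12 ± 0.051 (limma adjusted p = 0.255). Xdh needs a molybdenum cofactor, and the 2 tested genes of that list, sulfite oxidase Suox and Mtarc2, are other enzymes that use it. They gave -0.02 and -0.0018 (limma adjusted p = 0.905 and 0.990). No gene that makes the cofactor was tested. Of 3 organic anion and urate transporters, Slc22a6 gave 0.14 ± 0.064 (0.301), and none passed. Of 7 pyrimidine genes 4 were higher by sign and none passed (median 0.04).

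**Figure D4:**
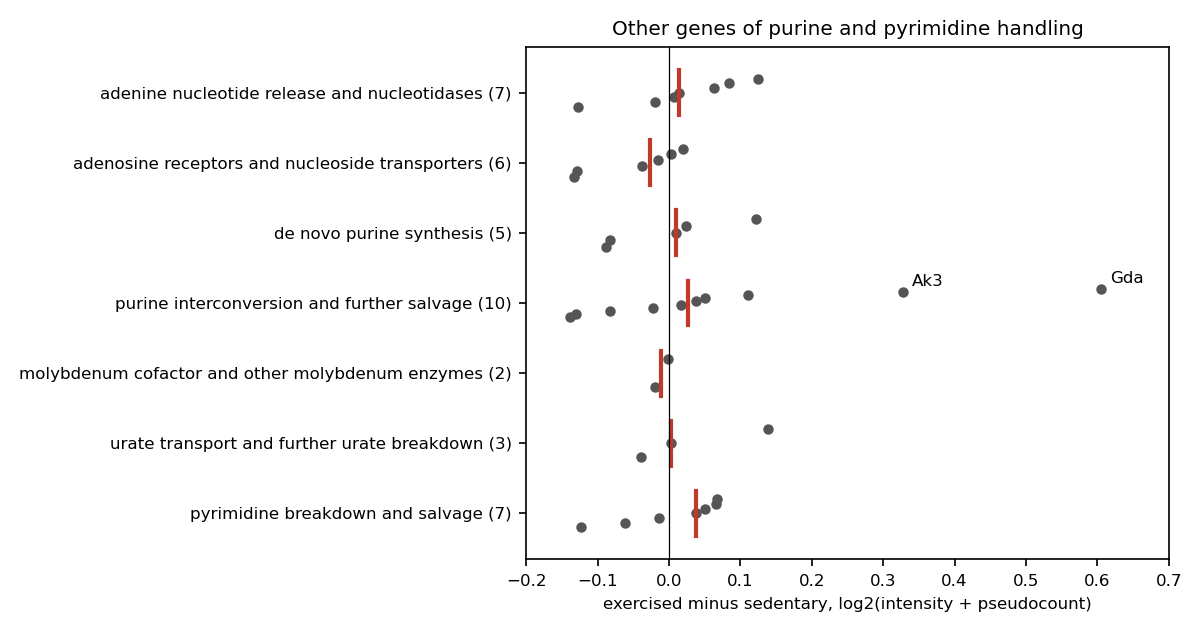
Difference of exercised from sedentary means of log2(intensity + 363) (horizontal axis) of each tested gene in 7 lists of purine and pyrimidine handling, with the number of genes in brackets and the list median as a red bar. Gda at 0.61 and Ak3 at 0.33 stand to the right, and the other 38 genes lie between -0.14 and 0.14.

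The genes whose signal was most like that of Xdh were ranked among 5376 other probe sets with 1 gene. Over the 12 arrays, where the group difference enters the measure, the highest Pearson r was that of Ppt1, a lysosomal thioesterase (r = 0.947, n = 12 arrays). Next came Eef1g, a subunit of elongation factor 1 (0.922), and Grn, which encodes progranulin (0.921). Cnp, a cyclic nucleotide phosphodiesterase of myelin (0.915), and Slc16a1, a lactate transporter (0.911), followed. With group means removed these r were lower, from 0.559 for Grn to 0.766 for Ppt1.

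With group means removed before ranking, the leading probe sets were those of Ctsb, a lysosomal protease (r = 0.907, n = 12 arrays), Tmem69 (0.877), Lztr1 (0.865), Vhl (0.857) and Ptpn23 (0.855). Ctsb read 3600, 4812, 4287, 4213, 4073 and 3927 in exercised samples, against 4222, 3543, 3363, 3685, 3389 and 3495 in sedentary samples. As with Xdh, sedentary 13 was the highest of its group and exercised 4 the highest of the other. Without these 2 arrays the r with Xdh was 0.693 for Ctsb, 0.386 for Lztr1 and 0.916 for Vhl over 10 arrays. The r of these genes is a description, since the arrays share any technical variation.

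The r of the other members with Xdh, given as a description, took both signs. Over the 12 arrays, with the group difference in the measure, it ran from -0.767 for M37941mRNA_s_at of Ampd1 and -0.665 for X13098cds_s_at of Uox to 0.620 for the brighter Hprt1 probe set and 0.659 for J03959_g_at of Uox. With group means removed it ran from -0.448 for the brighter Ampd1 probe set to 0.491 for the brighter Hprt1 probe set. For the first 2 of these probe sets it was then -0.132 and -0.340, and for J03959_g_at 0.375.

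**Figure D5:**
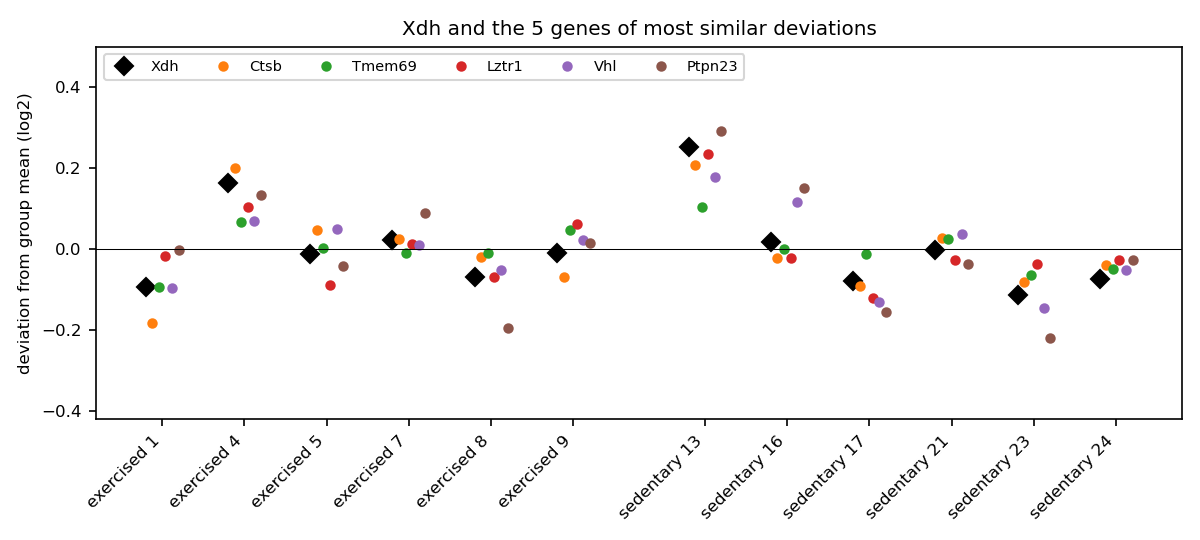
Deviation from the group mean on the log2(intensity + 363) scale (vertical axis) of Xdh, as black diamonds, and the 5 most similar genes, as coloured points, on each array (horizontal axis). Sedentary 13 lies above its group mean for all 6 genes, with Xdh at 0.25, and exercised 4 does too, with Xdh at 0.16.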

How the data were processed

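The authors deposited a linear intensity for each probe set and array. How background and scaling were handled, and with which software, is not given in the sources used here. Array medians lay between 840 and 875, and the deposited scaling was kept, so a change in total RNA per cell would not be seen. Probe sets were named from the platform's annotation, where 7006 had 1 symbol, 308 several and 1426 none, and all 10 member probe sets matched RefSeq by Entrez ID with the same symbol.

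The fit was limma 3.58.1 in R 4.3.3 (lmFit, eBayes with a mean-variance trend) on log2(intensity + 363), the 20th percentile of all values. Probe sets with a mean above 434, the 25th percentile of means, were tested, or 6555 of 8740. The Benjamini-Hochberg adjustment ran over all of them. The brightest tested probe set stood for a gene in lists, and no set test was run. The code was tested on simulated data. Text names all member probe sets, up to 4 genes of smallest p per list, the 5 genes most like Xdh by each measure, and markers a sentence turns on. Aprt, outside this rule, was chosen after its values were seen. Members and lists were chosen with earlier results of these data known. Alternatives were other pseudocounts, a floor, other filters, quantile and median scaling, other eBayes settings, array weights, a rank-sum test and leaving out arrays. Their effect is given in the closing section.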

Additional observations from a re-analysis of the deposited data

Results flagged for a closer look

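In 24 groups of 6 values (10 member probe sets, Gda and Ak3, in each group), 4 had a sample far from the others by Dixon's test, where chance flags about 1 group in 20. Sedentary 13 had an Xdh intensity of 1969.22, above 1445 to 1619 on the other sedentary arrays. Sedentary 17 was the sample in the other 3. Its Ampd1 signal on M98819mRNA_s_at was 1584.88, above 1191 to 1314, its Hprt1 signal on M63983_s_at was 1029.64, below 1644 to 1930, and its Uox signal on X13098cds_s_at was 1195.77, above 1087 to 1109.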

How the results depend on the processing

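The Xdh difference lay between 0.478, with the pseudocount raised to 2 times its value, and 0.654, with a floor in its place, over 24 alternatives, and between 0.520 and 0.603 with 1 array left out. It never moved by more than the SD of single arrays within groups, 0.11. With the floor and with the raised pseudocount it moved by more than its SE of 0.065. The rank-sum test, other eBayes settings and other filters leave a difference as it is. Under them only the side of the threshold could change. Of 198 values of the other 8 member probe sets under alternatives, 190 kept their direction and side of the threshold. The other 8 were those of Adk, at -0.0022 in the main setting, whose sign turned: 0.000104 with a floor, 0.00232 with median scaling, 0.0927 without exercised 4 and 5, 0.0226, 0.0257 and 0.0458 without exercised 1, 4 and 5 each, and 0.0534 and 0.0445 without sedentary 21 and 24 each. Its lowest values were -0.131 with array weights, -0.109 without sedentary 16 and 17 and -0.0861 without sedentary 17. None of these 8 probe sets passed under any alternative. The number of listed pathway genes past it, 0 in the main setting, was 1 with array weights and 0 to 1 with 1 array left out, Ak3 each time (0.318 with array weights). The cause was not tested. Of all tested probe sets 21 passed, against 42 without a trend, 160 with array weights, 32 without a filter, 50 with the filter at the 50th percentile, 5 without sedentary 16 and 17, 4 without exercised 4 and 5, and 3 (without sedentary 23) to 37 (without sedentary 13) with 1 array left out. The rank-sum test called none of the 6555. No paired analysis was possible because the groups share no label numbers. Without detection calls, how far the dim probe sets of Ampd3, Ampd1 and Uox stand above background is not known.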
